A study of Mus musculus with 12 samples.

Results

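Autophagy machinery genes are the genes whose products build the autophagosome, the double membrane that encloses cytoplasm and carries it to the lysosome. They were chosen by symbol: the Atg genes, the ATG8 family (Map1lc3 and Gabarap genes), Ulk1, Ulk2, Wipi1 and Wipi2, together with Becn1, Sqstm1, Nbr1, Optn, Rb1cc1, Pik3c3, Uvrag, Ambra1 and Vmp1. This gave 34 genes of the 14159 listed in the normalized counts, and all 34 had enough reads to be tested. Map1lc3a and Atg9a were not analysed here. The counts come from polyA RNA-seq of whole inguinal white adipose tissue (iWAT) of mice with 2 genotypes. Atf4WT mice are littermates with floxed Atf4 alleles, and Atf4AKO mice carry the same alleles with Adipoq-Cre, which deletes Atf4 in adipocytes, so the other cells of the tissue keep the gene. Each genotype was kept at room temperature (RT) or in the cold for 24 h, with 3 biological replicates, numbered 0, 1 and 2, in each of the 4 groups.

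Autophagy starts when the ULK kinase complex is switched on, which the kinase mTOR holds back in fed cells. A class III phosphatidylinositol 3-kinase complex then marks the membrane, lipid transfer proteins extend it, and a pair of ubiquitin-like conjugation systems attaches ATG8 proteins to it, to which cargo receptors bind. In adipose tissue autophagy is known for clearing mitochondria, and in amino acid starvation ATF4 and CHOP (Ddit3) are known to switch on many autophagy genes, which is why the genes are of interest in mice that lack Atf4 in adipocytes. The transcription factor TFEB is another known regulator of autophagy and lysosome genes.

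The 12 libraries held 25719476 to 29105147 reads on the listed genes. Atf4, the deleted gene, had 5669, 4670 and 4107 normalized counts in Atf4WT RT iWAT, 7644, 7511 and 5756 in Atf4WT cold iWAT, 1594, 1470 and 1639 in Atf4AKO RT iWAT and 1578, 788 and 1180 in Atf4AKO cold iWAT. The genotypes did not overlap at either temperature. Atf4 was lower in Atf4AKO by -2.60 ± 0.22 (log2 fold change ± SE) after cold (limma adjusted p = 6.44e-04) and by -1.61 ± 0.22 at RT (limma adjusted p = 0.076). All 8 white adipocyte markers were listed in each group, with a summed level of at least 700000 normalized counts. Their median sum was 825000 in Atf4WT RT and 1036000 in Atf4WT cold, and 816100 and 1030000 in Atf4AKO, with overlapping ranges. Markers of other cells also moved between groups or libraries, none of the listed markers being at 0. The 6 endothelial markers summed to 20580 to 21990 in Atf4WT RT and 16130 to 20160 in Atf4WT cold, and to 18500 to 21030 and 17240 to 19020 in Atf4AKO. The 6 fibroblast and progenitor markers, of 6 in the list, summed to 108500 to 130300 normalized counts in Atf4WT RT and 31160 to 69720 in Atf4WT cold, and to 109400 to 161400 in Atf4AKO RT and 28550 to 66110 in Atf4AKO cold. The mean log2 level of the 19 lymphocyte markers, of 19 in the lists, was 7.30 to 9.80 in Atf4WT cold, 3.42 to 5.12 in Atf4AKO cold, 3.77 to 7.15 in Atf4WT RT and 4.02 to 5.17 in Atf4AKO RT. Skeletal muscle markers, of which 6 of 8 were listed, summed to 112900 in Atf4WT RT replicate 2, 38300 in Atf4WT cold replicate 0 and 4037 in Atf4AKO cold replicate 1, against 83.8 to 848 in the other 9 libraries. Macrophage markers, of which 7 of 8 were listed, summed to 4766 to 27690 in Atf4AKO cold and 13080 to 33470 in Atf4WT cold, with medians of 27570 and 29410, and to 22800 to 42360 in the RT libraries. In whole tissue, fewer cells of a type and less RNA per cell cannot be told apart.

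Promoter sequence is shown for the genes with the steadiest cold responses below (Atg4d, Map1lc3b and Ulk2) and for Atg3, whose window was the one among these genes that held the motif read by TFEB. The sequences were cut from the RefSeq promoter table for GRCm38.p6 (mm10), of which 29 of the 34 genes had an entry, and are given 5' to 3' on the strand of the gene, upstream of its start and free of annotated exons. They cover 250 bases for Atg4d (chr9:21265035-21265284, plus strand), 173 bases for Map1lc3b (chr8:121590188-121590360, plus strand), 250 bases for Ulk2 (chr11:61855093-61855342, minus strand) and 78 bases for Atg3 (chr16:45158707-45158784, plus strand). Capitals mark motifs.
Atg4d: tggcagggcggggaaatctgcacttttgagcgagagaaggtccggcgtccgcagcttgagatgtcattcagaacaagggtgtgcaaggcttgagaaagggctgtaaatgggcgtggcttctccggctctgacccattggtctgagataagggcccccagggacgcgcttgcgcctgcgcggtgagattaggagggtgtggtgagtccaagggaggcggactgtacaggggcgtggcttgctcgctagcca
Map1lc3b: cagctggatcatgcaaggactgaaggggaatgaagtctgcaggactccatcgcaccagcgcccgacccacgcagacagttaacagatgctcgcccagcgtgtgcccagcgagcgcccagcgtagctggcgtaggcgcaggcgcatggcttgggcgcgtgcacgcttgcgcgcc
Ulk2: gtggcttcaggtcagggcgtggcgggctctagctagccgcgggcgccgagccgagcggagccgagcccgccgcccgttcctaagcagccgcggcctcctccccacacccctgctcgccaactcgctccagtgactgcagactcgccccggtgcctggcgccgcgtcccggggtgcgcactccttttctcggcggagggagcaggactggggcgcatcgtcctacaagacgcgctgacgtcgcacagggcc
Atg3: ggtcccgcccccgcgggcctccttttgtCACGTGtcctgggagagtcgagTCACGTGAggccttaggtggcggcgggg

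The motifs were searched on both strands of the 250 bases before the start. TCACGTGA, the element bound by TFEB, contains the E-box CACGTG and so always counts under both. It was found in 1 of the 29 genes (3.45%, Atg3) and in 0.907% of all 27025 genes of the table, and CACGTG in 3 of the 29 (10.3%, Atg3, Atg5 and Atg7) and in 6.86% of all genes. TGATGNAA, the composite element of ATF4 and its C/EBP partners, was in 0 of the 29 and in 3.91% of all genes. TGACGTCA, the cAMP response element, was in 1 (3.45%, Atg16l2) and in 1.77% of all genes. The windows of Atg4d, Map1lc3b and Ulk2 held none of these letters. A match describes the sequence and does not show binding.

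Levels are compared between genes per kilobase of transcript, as the mean normalized count of all 12 libraries. Gabarap (6274 per kb) and Sqstm1 (3673 per kb) led, followed by Gabarapl1 (2747 per kb), Map1lc3b (2167 per kb) and Gabarapl2 (1384 per kb), so that the ATG8 proteins and the cargo receptor p62 were the most abundant transcripts of the machinery. Atg3, Optn and Becn1 followed at 1140, 1107 and 1074 per kb, levels that lie close together. Atg16l2 (28.2 per kb) and Atg9b (21.5 per kb) were the lowest of the 34, and Atg9b had a mean of 84.0 normalized counts. The lipid scramblase gene Atg9b is therefore measured with the fewest reads here.

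Cold exposure changed single members of the machinery in both directions. In Atf4WT iWAT 7 of the 34 genes passed an adjusted p of 0.05 (20.6%), against 31.9% of all 13404 genes tested. Of these, 3 rose (Atg2a, Atg2b and Atg4d), where 17% of all genes rose, and 4 fell (Map1lc3b, Nbr1, Pik3c3 and Ulk2), where 14.9% of all genes fell. The median log2 fold change of the 34 genes was -0.0012, and the median of its size without sign was 0.14, compared with 0.0026 and 0.32 over all genes. In Atf4AKO iWAT 8 of the 34 passed (23.5%), against 25.9% of all genes. There 5 rose (Atg2b, Atg4d, Optn, Vmp1 and Wipi2) and 3 fell (Map1lc3b, Pik3c3 and Ulk2), against 14.8% and 11% of all genes. Their median was 0.087, with -0.032 over all genes. The genes Atg4d, Atg2b, Map1lc3b, Pik3c3 and Ulk2 passed in both genotypes, and 24 genes passed in neither. An unadjusted p under 0.05 was reached by 11 of the 34 in Atf4WT (43.4% of all genes) and by 13 in Atf4AKO (39.1% of all genes), and together with a fold change over 1.5 by 2 (21.2% of all genes) and 1 (17.2% of all genes). Past both thresholds were Atg4d and Atg9b in Atf4WT and Atg4d in Atf4AKO. The cold libraries all lay above the RT libraries for 5 of the 34 in Atf4WT and all below for 6 (23.9% and 22.9% of all genes, 46.8% in all), and in Atf4AKO for 11 and 5 (21.7% and 19.9% of all genes, 41.7% in all). Without the 3 libraries with muscle markers, 7 genes passed an adjusted p of 0.05 in Atf4WT and 5 in Atf4AKO. In Atf4WT Atg2b (0.28) and Nbr1 (-0.211) then no longer passed, whereas Atg16l2 (0.96) and Wipi1 (-0.66) did, and in Atf4AKO Atg2b, Vmp1 and Wipi2 no longer passed. With the lymphocyte level as a covariate, 2 passed in Atf4WT (Atg4d and Atg5) and 8 in Atf4AKO. The shares of all genes called without those libraries or with the covariate are not given here. The part of the fibroblast and progenitor markers, whose level was lower after cold in both genotypes, was not tested.

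**Figure D1:**
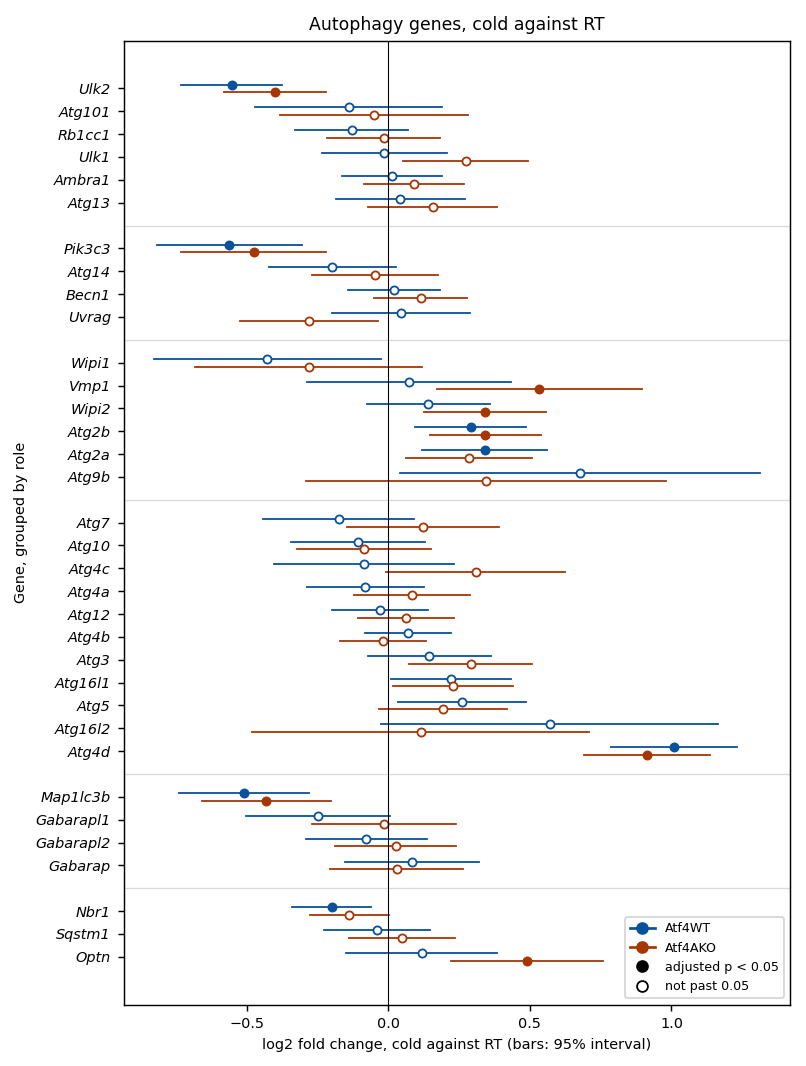
Log2 fold change of each of the 34 autophagy genes, cold against RT (x axis), in Atf4WT (blue) and Atf4AKO iWAT (orange-brown), with 95% intervals (bars, n = 3 per group) and genes grouped by role (y axis), filled points marking an adjusted p under 0.05. Atg4d stands apart at 1.01 and 0.91, while most genes lie within 0.5 of 0.

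Among the 11 conjugation genes, whose products process ATG8 proteins and attach them to the membrane, Atg4d was the one that passed in limma, with Atg3 called in Atf4AKO by edgeR and DESeq2, and Atg4d had the largest cold response of the 34 genes. Atg4d encodes a cysteine protease that trims ATG8 proteins and can release them from membrane lipid. It is NM_153583 on chr9:21265293-21277772, plus strand (mm10). Atg4d had 795, 760 and 697 normalized counts in Atf4WT RT and 1549, 1517 and 1462 in Atf4WT cold iWAT. In Atf4AKO it had 765, 856 and 799 at RT and 1358, 1772 and 1453 after cold. Every cold library lay above every RT library, and the genotypes overlapped at both temperatures. The log2 fold change was 1.01 ± 0.10 in Atf4WT (2.01-fold, limma adjusted p = 9.97e-05) and 0.91 ± 0.10 in Atf4AKO (1.88-fold, limma adjusted p = 1.95e-04). Both calls held in all 24 alternatives tried. Part of the Atg4d gene lies opposite Kri1, with 1405 of its 7264 exon bases shared on the other strand, and Kri1 itself had a log2 fold change of 0.51 in Atf4WT (limma adjusted p = 0.032) and 0.41 in Atf4AKO (limma adjusted p = 0.081). The strand setting of the counting is not given in the sources used here, so reads of these genes may not be told apart.

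Within the ATG4 proteases, Atg4d made up 14.1% ± 0.61 (SD, n = 3) of the summed level per kb of Atg4a, Atg4b, Atg4c and Atg4d in Atf4WT RT and 25.1% ± 0.69 in Atf4WT cold iWAT. In Atf4AKO its share was 14.7% ± 0.75 at RT and 23.4% ± 2.27 after cold. Atg4b, the protease that does most of the ATG8 processing, stayed the largest of the family at 33.7% to 42.5% in every library. These shares come from the same values as the tests and are given as a description.

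The other conjugation genes moved less. Atg5, which is joined to Atg12, had a log2 fold change of 0.26 in Atf4WT (limma adjusted p = 0.075) and 0.19 in Atf4AKO (limma adjusted p = 0.19). Atg16l1, which brings that conjugate to the membrane, had 0.22 and 0.23 (limma adjusted p = 0.10 in both). Atg3, the E2-like enzyme that hands ATG8 proteins to lipid, had 0.14 in Atf4WT and 0.29 in Atf4AKO (limma adjusted p = 0.29 and 0.050, the latter just over the threshold). In Atf4AKO its adjusted p was 0.038 in edgeR and 0.035 in DESeq2. The remaining 7 genes had limma adjusted p-values over 0.05 in both genotypes, and the role's median response was 0.070 in Atf4WT and 0.12 in Atf4AKO.

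**Figure D2:**
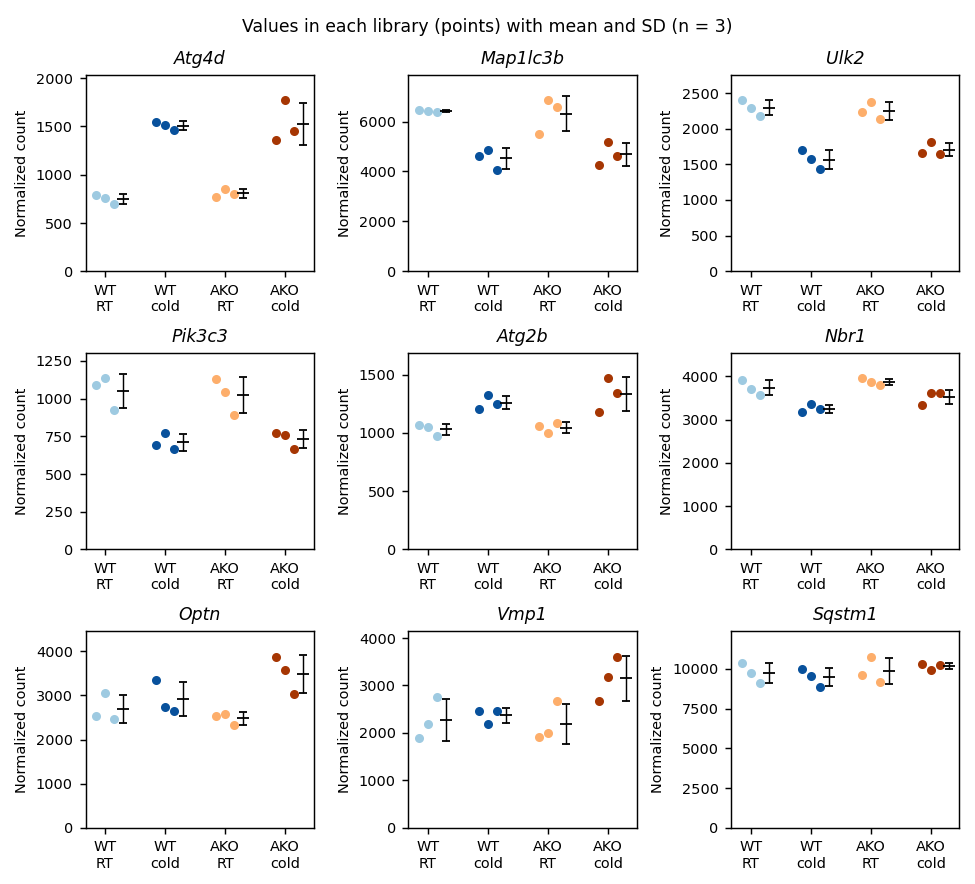
Normalized counts (y axis, from 0) of 9 autophagy genes in each library (points) of the 4 groups (x axis), with the mean and SD (black, n = 3). Cold libraries of Atg4d all lie above and those of Map1lc3b, Ulk2 and Pik3c3 all below the RT libraries of the same genotype, whereas Sqstm1 stays between 8861 and 10781 throughout.

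In the ATG8 family, whose proteins coat the growing membrane and bind cargo receptors, Map1lc3b fell with cold and the other 3 members did not pass the test. Map1lc3b encodes LC3B, the usual marker of autophagosomes, and is NM_026160 on chr8:121590361-121598760, plus strand. It had 6456, 6425 and 6394 normalized counts in Atf4WT RT, and 4628, 4876 and 4064 in Atf4WT cold iWAT. In Atf4AKO it had 5511, 6856 and 6582 at RT and 4249, 5185 and 4614 after cold. Every cold library was below every RT library of either genotype. Map1lc3b fell by 29.8% in Atf4WT (log2 fold change -0.51 ± 0.10, limma adjusted p = 0.0044) and fell by 25.8% in Atf4AKO (-0.43 ± 0.10, limma adjusted p = 0.012). With the lymphocyte level as a covariate the Atf4WT value was -0.343 (limma adjusted p = 0.198). The part of lymphocytes in this result was not tested. In Atf4AKO, where the lymphocyte ranges of RT and cold overlap, the value with the covariate was -0.45. Zcchc14, whose exons share 58 bases with Map1lc3b on the other strand, had -0.33 in Atf4WT (limma adjusted p = 0.013).

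Gabarap, the most abundant of the family (NM_019749, chr11:69991143-69994951, plus strand), had 8586, 8007 and 7162 normalized counts in Atf4WT RT and 9397, 8130 and 7678 in Atf4WT cold iWAT. It had 8299, 9547 and 8261 in Atf4AKO RT and 8579, 9773 and 8295 in Atf4AKO cold iWAT, and the groups overlapped. Its cold responses were 0.08 (95% interval -0.15 to 0.32) in Atf4WT and 0.03 (-0.21 to 0.27) in Atf4AKO, and their sign changed with the scaling or the libraries used. Gabarapl1, a relative known for high levels in fat and brain, had 5239, 5326 and 5024 in Atf4WT RT, 4438, 5198 and 3634 in Atf4WT cold, 5040, 5294 and 5307 in Atf4AKO RT, and 4655, 5598 and 5250 in Atf4AKO cold iWAT. Its response in Atf4WT was -0.25 (95% interval -0.50 to 0.01, limma adjusted p = 0.13), and without Atf4WT cold replicate 1, the highest of the 3 cold libraries, it was -0.371 (limma adjusted p = 0.030). In Atf4AKO it was -0.02 (-0.27 to 0.24). Gabarapl2, also called GATE-16, had 2212, 2493 and 2168 in Atf4WT RT, 2155, 2353 and 2009 in Atf4WT cold, 2272, 2571 and 2317 in Atf4AKO RT, and 2172, 2654 and 2482 in Atf4AKO cold iWAT. Its responses were -0.08 (-0.29 to 0.14) and 0.03 (-0.19 to 0.24), with overlapping groups, and the latter turned to -0.0338 with another scaling.

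**Figure D3:**
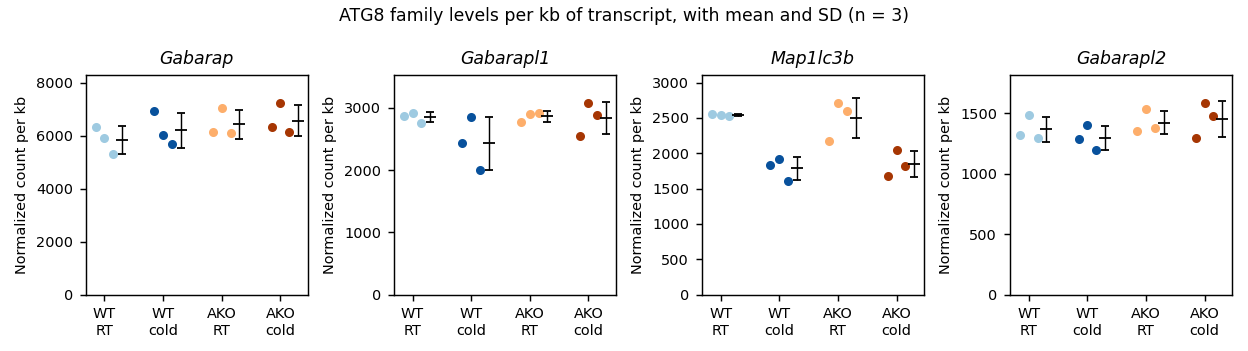
Normalized counts per kb of transcript (y axes, from 0, with a scale of their own) of the 4 listed ATG8 family genes in each library (points) of the 4 groups (x axis), with the mean and SD (black, n = 3). Map1lc3b falls from a mean of 2537 to 1786 per kb in Atf4WT and from 2495 to 1849 per kb in Atf4AKO, while the groups of the other 3 overlap between RT and cold.

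The order of the family by level per kb was Gabarap, Gabarapl1, Map1lc3b and Gabarapl2 in each of the 4 groups, and the library ranges of neighbours in this order did not overlap in any group. The share of Map1lc3b in the summed level of the 4 genes was 20.1% ± 0.97 in Atf4WT RT and 15.2% ± 0.59 in Atf4WT cold iWAT, and 18.8% ± 1.26 and 14.5% ± 0.36 in Atf4AKO (SD, n = 3). The share of Gabarap was 46.4% ± 1.96 in Atf4WT RT and 53.1% ± 3.31 in Atf4WT cold, and 48.7% ± 1.48 and 51.7% ± 1.83 in Atf4AKO. The shares of Gabarap did not overlap between RT and cold in either genotype, nor did those of Map1lc3b. The counts of Gabarap itself overlapped between RT and cold, and a share also moves with the other genes of the sum.

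The cargo receptors bind ubiquitinated cargo on one side and ATG8 proteins on the other, and each behaved in its own way. Sqstm1, which encodes p62 (NM_001290769, chr11:50199366-50210827, minus strand), had 10407, 9767 and 9113 normalized counts in Atf4WT RT and 10010, 9582 and 8861 in Atf4WT cold iWAT. It had 9637, 10781 and 9161 in Atf4AKO RT and 10300, 9945 and 10245 in Atf4AKO cold iWAT. All 4 groups overlapped, and the responses were -0.04 (95% interval -0.23 to 0.15) in Atf4WT and 0.05 (-0.14 to 0.23) in Atf4AKO. The sign of the Atf4AKO value turned with another scaling of the libraries (-0.0136).

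Nbr1, a receptor for protein aggregates and peroxisomes, had 3921, 3703 and 3576 in Atf4WT RT and 3162, 3352 and 3232 in Atf4WT cold iWAT. In Atf4AKO it had 3949, 3861 and 3802 at RT and 3343, 3605 and 3615 after cold. Cold libraries were below RT libraries in both genotypes. Nbr1 fell by 12.9% in Atf4WT (-0.20 ± 0.06, limma adjusted p = 0.033), and the value in Atf4AKO was -0.14 ± 0.06 (limma adjusted p = 0.13). The Atf4WT call was lost when any of Atf4WT RT replicates 0 and 1 or Atf4WT cold replicates 0, 1 and 2 was left out, at values of -0.164 to -0.223, and with the Atf4WT groups fitted alone (limma adjusted p = 0.082).

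Optn encodes optineurin, a receptor used in clearing mitochondria and bacteria (NM_001356487, chr2:5020642-5064051, minus strand). It had 2545, 3051 and 2464 normalized counts in Atf4WT RT, 3359, 2740 and 2655 in Atf4WT cold, 2529, 2584 and 2320 in Atf4AKO RT, and 3882, 3578 and 3030 in Atf4AKO cold iWAT. The Atf4AKO cold libraries all lay above the Atf4AKO RT libraries, whereas the Atf4WT groups overlapped. Optn rose in Atf4AKO by 0.49 ± 0.12 (1.41-fold, limma adjusted p = 0.014), a call that held in all 24 alternatives. In Atf4WT the value was 0.12 ± 0.12 (limma adjusted p = 0.49), and the test of the genotypes against each other is given below.

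Of the 6 genes of the ULK complex and its activator Ambra1, Ulk2 was the one that passed in limma, in both genotypes, and DESeq2 also called Ulk1 in Atf4AKO. Ulk2, one of the kinases that start autophagy (NM_013881, chr11:61775649-61855073, minus strand), had 2400, 2297 and 2184 normalized counts in Atf4WT RT and 1698, 1570 and 1429 in Atf4WT cold iWAT. In Atf4AKO it had 2240, 2380 and 2135 at RT and 1662, 1812 and 1647 after cold. The cold and RT libraries did not overlap. Ulk2 fell by 31.9% in Atf4WT (-0.55 ± 0.08, limma adjusted p = 7.96e-04) and fell by 24.2% in Atf4AKO (-0.40 ± 0.08, limma adjusted p = 0.0053). With the lymphocyte level as a covariate the Atf4WT value was -0.348 (limma adjusted p = 0.066). Its paralog Ulk1 had 1329, 1265 and 1254 in Atf4WT RT, 1239, 1444 and 1142 in Atf4WT cold, 1192, 1243 and 1301 in Atf4AKO RT, and 1361, 1676 and 1491 in Atf4AKO cold iWAT. Ulk1 responses were -0.02 ± 0.10 in Atf4WT and 0.27 ± 0.10 in Atf4AKO (limma adjusted p = 0.93 and 0.067), and in Atf4AKO the DESeq2 adjusted p was 0.049. Per kb, Ulk2 made up 61.9% ± 0.55 (SD, n = 3) of the pair in Atf4WT RT and 52.8% ± 2.91 in Atf4WT cold, and 62.1% ± 1.99 and 50.7% ± 1.63 in Atf4AKO, without overlap between RT and cold. The scaffold genes Rb1cc1, Atg13 and Atg101 and Ambra1 ranged from -0.14 to 0.04 in Atf4WT and from -0.05 to 0.16 in Atf4AKO.

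In the class III phosphatidylinositol 3-kinase complex, the catalytic gene Pik3c3 (VPS34) passed in limma, edgeR and DESeq2, and its partners Becn1, Atg14 and Uvrag passed in none of them. Pik3c3 had 1090, 1135 and 923 normalized counts in Atf4WT RT and 690, 775 and 664 in Atf4WT cold iWAT, and 1129, 1043 and 894 in Atf4AKO RT and 775, 761 and 664 in Atf4AKO cold iWAT. All cold libraries were below all RT libraries. Pik3c3 fell by 32.2% in Atf4WT (-0.56 ± 0.12, limma adjusted p = 0.0048) and fell by 28.1% in Atf4AKO (-0.48 ± 0.12, limma adjusted p = 0.013). The Atf4AKO call was lost without Atf4AKO RT replicate 0 (-0.401, limma adjusted p = 0.057), and the Atf4WT call with the lymphocyte level as a covariate (-0.417, limma adjusted p = 0.18). Becn1, the scaffold of the complex, had responses of 0.02 (95% interval -0.14 to 0.18) and 0.11 (-0.05 to 0.28). Atg14, which directs the complex to autophagy, had -0.20 (-0.42 to 0.03) and -0.05 (-0.27 to 0.18). Uvrag, which directs it to endosomes, had 0.04 (-0.20 to 0.29) in Atf4WT and -0.28 (-0.52 to -0.04, limma adjusted p = 0.086) in Atf4AKO.

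Of the 6 genes for lipid supply and the early membrane, 5 had a value above 0 with cold in each genotype, and 1, Wipi1, was below. Of all genes, 50.24% were above 0 in Atf4WT and 46.85% in Atf4AKO. The medians of the 6 genes were 0.22 in Atf4WT and 0.34 in Atf4AKO, with 0.0026 and -0.032 over all genes. Among them Atg9b, the gene with the fewest reads, had 0.68 ± 0.29 in Atf4WT (1.60-fold, limma adjusted p = 0.096). In Atf4AKO it had 0.35 ± 0.29 (limma adjusted p = 0.40), and its RT and cold libraries overlapped in both genotypes. Atg2b, a lipid transfer protein that feeds the membrane, had 1064, 1054 and 973 normalized counts in Atf4WT RT, 1207, 1323 and 1251 in Atf4WT cold, 1057, 995 and 1083 in Atf4AKO RT, and 1177, 1467 and 1345 in Atf4AKO cold iWAT. Cold lay above RT in both genotypes. Atg2b rose by 0.29 ± 0.09 in Atf4WT (limma adjusted p = 0.029) and by 0.34 ± 0.09 in Atf4AKO (limma adjusted p = 0.017). Its paralog Atg2a, with 1331 to 1434 in Atf4WT RT and 1598 to 2008 in Atf4WT cold iWAT, rose by 0.34 ± 0.10 in Atf4WT (limma adjusted p = 0.025) and had 0.28 ± 0.10 in Atf4AKO (limma adjusted p = 0.059, DESeq2 adjusted p = 0.041). Both are small changes that rest on few libraries. Atg2a lost its call without Atf4WT RT replicate 0 or 1 or without Atf4WT cold replicate 1, at values of 0.341, 0.312 and 0.241, and with the Atf4WT groups fitted alone (limma adjusted p = 0.051). Atg2b lost it in Atf4WT without any 1 of the Atf4WT libraries except cold replicate 0 (0.25 to 0.314), and in Atf4AKO without RT replicate 1 (0.308) or cold replicate 1 (0.269) and with the Atf4AKO groups fitted alone (limma adjusted p = 0.060).

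Vmp1, an endoplasmic reticulum scramblase, had 1887, 2179 and 2758 normalized counts in Atf4WT RT, 2465, 2182 and 2455 in Atf4WT cold, 1904, 1995 and 2665 in Atf4AKO RT, and 2666, 3188 and 3609 in Atf4AKO cold iWAT. The Atf4AKO groups met at 2665 and 2666, and the Atf4WT groups overlapped. It rose by 0.53 ± 0.16 in Atf4AKO (limma adjusted p = 0.035), and had 0.07 ± 0.16 in Atf4WT (limma adjusted p = 0.76). The Atf4AKO call was lost without Atf4AKO RT replicate 0 or 1 or Atf4AKO cold replicate 1 or 2 (0.43 to 0.52). It was also lost in edgeR (0.523, edgeR adjusted p = 0.052), with scaling to the 75th percentile (0.472, limma adjusted p = 0.063) and with the Atf4AKO groups fitted alone (0.533, limma adjusted p = 0.057). Wipi2, which recruits ATG16L1 to the marked membrane, rose by 0.34 ± 0.10 in Atf4AKO (limma adjusted p = 0.027), from 2365 to 2694 normalized counts at RT to 2951 to 3519 after cold. Without Atf4AKO RT replicate 0 or 2 or Atf4AKO cold replicate 1 or 2 it did not pass (0.274 to 0.349), and in Atf4WT it had 0.14 ± 0.10 (limma adjusted p = 0.30). Wipi1, the paralog of Wipi2, had -0.43 ± 0.18 in Atf4WT (limma adjusted p = 0.095) and -0.28 ± 0.18 in Atf4AKO (limma adjusted p = 0.28).

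Atf4AKO and Atf4WT iWAT were then compared directly, which asks whether the loss of Atf4 in adipocytes changed these transcripts. At RT 0 of the 34 genes had an adjusted p under 0.05 in limma, where 0.00746% of all genes passed, and 0 had an unadjusted p under 0.05 in limma, edgeR or DESeq2, where 1.53% of all genes did in limma. With a fold change over 1.5 as well the count was 0, against 0.463% of all genes. The smallest p-values were those of Atg4b, Atg12 and Atg10. Atg4b had 1515, 1493 and 1385 normalized counts in Atf4WT and 1637, 1652 and 1508 in Atf4AKO, a log2 fold change of 0.13 (95% interval -0.03 to 0.28). Atg12, the ubiquitin-like protein joined to ATG5, had 1421, 1515 and 1407 in Atf4WT and 1542, 1579 and 1561 in Atf4AKO, a difference of 0.11 (-0.06 to 0.28), and was the single gene of the 34 whose genotypes did not overlap at RT, higher in Atf4AKO, where 3.32% of all genes lay above, 2.98% below and 6.3% in all did not overlap. Atg10, the enzyme that makes this conjugate, had 554, 582 and 520 in Atf4WT and 603, 683 and 556 in Atf4AKO, a difference of 0.15 (-0.09 to 0.39). For all 3 the limma adjusted p was 1.00.

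After cold 0 of the 34 genes passed an adjusted p of 0.05 in limma, edgeR or DESeq2, where 0.0298% of all genes did so in limma, 0.0224% in edgeR and 4.19% in DESeq2. An unadjusted p under 0.05 was reached by 7 of the 34 in each of these tools, and in limma by 11.7% of all genes, the shares in edgeR and DESeq2 not being given here. In limma these were Atg7, Atg4c, Atg12, Vmp1, Ulk1 and Wipi2, which were higher in Atf4AKO, and Atg16l2, which was lower. Atg7 and Atg4c are named here because of their values. With a fold change over 1.5 as well, 1 of the 34 was left, Atg16l2, against 6.4% of all genes. Atg16l2, a little used paralog of Atg16l1 (NM_001111111, chr7:101263034-101302251, minus strand), had 202, 255 and 279 normalized counts in Atf4WT cold and 170, 177 and 135 in Atf4AKO cold iWAT, and 150, 124 and 236 in Atf4WT RT and 130, 117 and 210 in Atf4AKO RT iWAT. The cold groups did not overlap and differed by -0.60 ± 0.27 (limma adjusted p = 0.41). With the lymphocyte level as a covariate the difference was 0.353, and the part of lymphocytes in it was not tested. Fchsd2, whose exons share 25 of the 8469 exon bases of Atg16l2 on the other strand, differed by -0.68 ± 0.18 in the same comparison (limma adjusted p = 0.10). The threshold of 1.5-fold and p was also lost in edgeR and without Atf4WT RT replicate 0, Atf4AKO RT replicate 0, Atf4WT cold replicate 1 or 2, or Atf4AKO cold replicate 0, 1 or 2 (-0.737 to -0.486 over all libraries left out in turn).

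The genotypes did not overlap after cold for 7 of the 34 (16.5% of all genes), with 6 higher (8.68% of all genes) and 1 lower in Atf4AKO (7.84% of all genes). Most genes of the set were slightly higher in Atf4AKO after cold, as were most genes of the tissue. The value was above 0 for 32 of the 34, where it was for 59.4% of all genes tested, and the median was 0.11 with 0.046 over all genes. The 34 values come from the same libraries, and between replicates the median log2 level of the 34 had an SD of 0.067. Scaling to the 75th percentile moved the median over all genes to 0.0020. With the lymphocyte level as a covariate the median of the 34 turned to -0.0577. In the list of 12 genes known to depend on ATF4 or CHOP in amino acid starvation, 0 passed an adjusted p of 0.05 in limma, edgeR or DESeq2 in either comparison of the genotypes. Of all genes, limma, edgeR and DESeq2 called 0.0298%, 0.0224% and 4.19% after cold and 0.00746%, 0.00746% and 0.0284% at RT. In each of these tools 2 of the 12 genes had an unadjusted p under 0.05 after cold, both higher in Atf4AKO in limma, and 0 at RT. In limma 11.7% of all genes reached that p after cold and 1.53% at RT, the shares in edgeR and DESeq2 not being given here. The medians of the list were 0.11 after cold and 0.054 at RT, with 0.046 and 0.0056 over all genes. Ddit3, the gene of CHOP, rose with cold in both genotypes, by 0.76 ± 0.20 in Atf4WT and 0.73 ± 0.20 in Atf4AKO (limma adjusted p = 0.014 and 0.019).

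**Figure D4:**
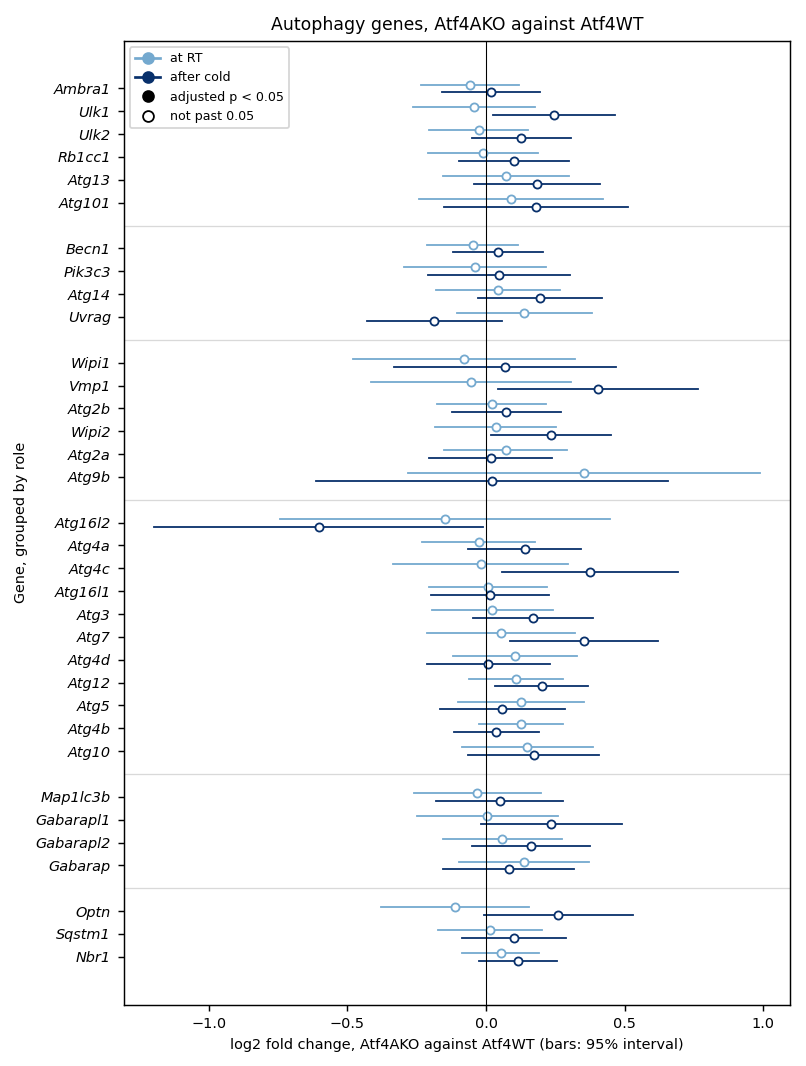
Log2 fold change of the 34 autophagy genes, Atf4AKO against Atf4WT (x axis), at RT (light blue) and after cold (dark blue), with 95% intervals (bars, n = 3 per group) and genes grouped by role (y axis). All points are open, since 0 genes passed an adjusted p of 0.05, and Atg16l2 after cold lies farthest from 0 at -0.60.

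Whether cold acted differently in the genotypes was tested as an interaction. In limma 0 of the 34 genes had an adjusted p under 0.05, as did 0 of all genes, and 0 of the 34 had an unadjusted p under 0.05, where 6.92% of all genes did, 4.63% with a fold change over 1.5 as well. At an unadjusted p under 0.05, edgeR gave 2 of the 34 and DESeq2 gave 1, and the shares of all genes at that threshold in edgeR and DESeq2 are not given here. Neither tool gave any of the 34 after adjustment, where edgeR called 0% and DESeq2 0.926% of all genes. The smallest p-values were those of Optn (0.37 ± 0.17, 95% interval -0.01 to 0.75), Uvrag (-0.32 ± 0.16, -0.67 to 0.02) and Ulk1 (0.29 ± 0.14, -0.02 to 0.60), with limma adjusted p-values of 0.73, 0.76 and 0.77. Optn, Vmp1 and Wipi2, which passed in Atf4AKO and not in Atf4WT, and Atg2a and Nbr1, which passed in Atf4WT and not in Atf4AKO, are therefore not shown to respond differently in the genotypes. For Atg4d the difference was -0.10 (95% interval -0.41 to 0.22), and for Map1lc3b it was 0.08 (-0.24 to 0.40). With 3 libraries per group, the values do not exclude differences within these intervals.

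Other genes of the pathway were counted from 2 further lists. Of 21 tested regulators upstream of the machinery, 5 passed with cold in Atf4WT (4 rose, 1 fell) and 8 in Atf4AKO (6 rose, 2 fell), and of 22 further effectors, 8 passed in Atf4WT (3 rose, 5 fell) and 5 in Atf4AKO (4 rose, 1 fell). The shares called were 23.8% and 38.1% of the regulators and 36.4% and 22.7% of the effectors, against 31.9% of all genes in Atf4WT (17% higher, 14.9% lower) and 25.9% in Atf4AKO (14.8% higher, 11% lower). In Atf4AKO against Atf4WT after cold, 0 genes of either list passed an adjusted p of 0.05 in limma and edgeR and 1 of each list in DESeq2. Of all genes, 0.0298% passed in limma, 0.0224% in edgeR and 4.19% in DESeq2. An unadjusted p under 0.05 in limma was reached by 1 gene of each list and by 11.7% of all genes. Tmem41b, a scramblase that works with VMP1, rose from 652, 704 and 604 normalized counts to 970, 1079 and 1239 in Atf4WT (0.74 ± 0.12, limma adjusted p = 0.0012) and by 0.89 ± 0.12 in Atf4AKO (limma adjusted p = 5.09e-04). Mtor, the kinase that restrains ULK1, rose from 1658, 2012 and 1554 to 2810, 2737 and 2868 in Atf4WT (0.70 ± 0.11, limma adjusted p = 0.0012) and by 0.86 ± 0.11 in Atf4AKO (limma adjusted p = 4.58e-04). Tfeb rose by 0.60 ± 0.10 in Atf4WT and 0.36 ± 0.10 in Atf4AKO (limma adjusted p = 0.0015 and 0.021).

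Pik3r4, the regulatory partner (VPS15) of the kinase encoded by Pik3c3, fell in the same direction as that gene. It had 874, 925 and 809 normalized counts in Atf4WT RT and 587, 660 and 599 in Atf4WT cold iWAT, and 920, 842 and 839 in Atf4AKO RT and 644, 579 and 694 in Atf4AKO cold iWAT. The log2 fold changes were -0.50 ± 0.09 and -0.44 ± 0.09 (limma adjusted p = 0.0030 and 0.0066). Vamp8, a SNARE that fuses autophagosomes with lysosomes, rose by 0.29 ± 0.07 in Atf4WT and 0.25 ± 0.07 in Atf4AKO (limma adjusted p = 0.0072 and 0.018). Ccpg1, a receptor for clearing endoplasmic reticulum, fell by 0.35 on the log2 scale in Atf4WT (limma adjusted p = 0.012) and had -0.23 in Atf4AKO (limma adjusted p = 0.072).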

How the data were processed

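Polyadenylated RNA of iWAT was sequenced with a DNBSEQ strand-specific kit in 12 libraries, 3 in each of 4 groups, and all were used. The values deposited by the authors are a normalized signal, the reads of a gene divided by the size factor of the library. The reads were filtered with SOAPnuke, mapped to mm10 with STAR, counted with featureCounts and normalized with pyDESeq2, and the versions and the strand setting are not given in the sources used here. In each library all values were whole reads within 0.01 after division by the value of 1 read, and each listed gene had at least 1 read in each library.

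The test was limma 3.58.1 (R 4.3.3) on log2(normalized count + 1), a scale that understates changes of low genes, with the prior variance following the mean. It covered 13404 genes whose mean reached 10. It held the 4 group means without covariates, with Benjamini-Hochberg adjustment over all genes tested. edgeR 4.0.16 and DESeq2 1.42.0 were run on the recovered reads as alternatives, the latter being the study's tool. The rule of the study for changed genes is a fold change over 1.5 with an unadjusted p under 0.05. The script was tested on simulated data. Replicates differed by more than sampling noise in all 4 groups, and p-values measure the spread between these mice only. Gene positions, transcript lengths and exon overlap came from GENCODE for GRCm38, with the length of the listed transcript for 31 of the 34 genes and of the longest for the other 3.

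Described one by one were the ATG8 family and the cargo receptors, genes past both thresholds with cold, and genes past a threshold between genotypes or else the 3 with the smallest p, with up to 4 examples per role, and 6 genes outside the set by adjusted p in Atf4WT with cold. The members and lists were chosen with earlier results of these data known.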

Additional observations from a re-analysis of the deposited data

How the results depend on the processing

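Over the 32 pairs of a named gene and a comparison and their alternatives, 765 values were recomputed, of which 701 kept their direction and their side of the threshold, 41 lost a call, 2 gained one and 21 changed sign. The calls of Atg4d in both genotypes, and of Map1lc3b, Ulk2 and Optn in Atf4AKO, held in all 24 alternatives. With the lymphocyte level as a covariate, 2 genes passed with cold in Atf4WT in place of 7 (Atg4d and Atg5), the median there was 0.13, the medians of Atf4AKO against Atf4WT after cold and of the interaction were -0.0577 and -0.0791, and 0 genes passed the fold rule between genotypes after cold, as in edgeR (0). In that fit the value of Atg16l2 between genotypes after cold was 0.353, those of Gabarapl2 and Sqstm1 in Atf4WT with cold 0.125 and 0.135, and those of Gabarap and Gabarapl2 in Atf4AKO -0.017 and -0.0013. Rescaling to the 75th percentile turned Gabarap, Gabarapl2 and Sqstm1 in Atf4AKO to -0.0314, -0.0338 and -0.0136. Leaving out the 3 libraries with skeletal muscle markers, an alternative chosen after seeing the data, gave 5 genes with cold in Atf4AKO and 7 in Atf4WT, and turned Gabarap (-0.0416 in Atf4AKO, -0.0696 in Atf4WT), Gabarapl2 in Atf4AKO (-0.0375) and Optn in Atf4WT (-0.047). The cause of these changes was not tested, and the shares of all genes called in these fits are not given here.

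With 1 library left out in turn, 5 to 7 genes passed with cold in Atf4WT and 5 to 10 in Atf4AKO, with 5 in the latter without Atf4AKO RT replicate 0 or without Atf4AKO cold replicate 1. The fold rule gave 0 to 1 gene between genotypes after cold and 0 to 1 at RT, with 1 without Atf4WT RT replicate 0. The values that changed sign were Gabarap (-0.0416 to 0.0976), Gabarapl1 (-0.0764 to 0.0568), Gabarapl2 (-0.0375 to 0.107) and Sqstm1 (-0.00437 to 0.113) in Atf4AKO and Sqstm1 in Atf4WT (-0.09 to 0.00676). The labels do not say that a number marks a shared litter or batch, and the correlation of deviations was over 0.1 in 9 of 18 same-numbered pairs (-0.189 to 0.389, median 0.0967) and in 9 of 36 other pairs (median -0.043). The 6 pairs of replicates 1 were all over 0.1 (0.179 to 0.389), and 3 of the other 12 were. The main test did not treat the samples as paired, and these correlations do not settle whether a number marks a shared litter or batch. With the replicate block 8 genes passed with cold in Atf4WT and 10 in Atf4AKO, and 0 in the other comparisons. Array weights gave 9 and 12 and DESeq2 gave 7 and 11. With cold, DESeq2 called 35.4% of all genes in Atf4WT and 29.6% in Atf4AKO. The shares of all genes called with the replicate block, with array weights or with 1 library left out are not given here. With 3 libraries per group, responses of the size of Nbr1 and Atg2a lie at the limit of what passes.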
